A study of Mus musculus with 12 samples.

Results

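The pigment-cell-rich libraries were the 5 of 12 RNA-seq libraries in which Tyrp1, the melanosomal enzyme tyrosinase-related protein 1, had a regularised log2 (rlog) value above 12. They were the in vivo treated libraries 2 and 3 and the non-primed libraries 1, 2 and 3. The other 7 libraries, called fibroblast-rich here, were the in vivo treated library 1, the in vitro treated libraries 1 to 3 and the primed vehicle libraries 1 to 3. Measured Tyrp1 values therefore chose the sides, and because the genes of the same libraries move with it, every difference between the sides is a description without a test. Just inside the cut, Tyrp1 was 17.44 in the in vivo treated library 3, and just outside it was 6.10 in the in vitro treated library 1, so no library lay near the cut.

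All libraries came from cultured cells labelled as synovial fibroblasts of BALB/c mice, grown out of collagenase-digested, skin-flayed paws. Cells of 2 to 3 paws were pooled and carried through 5 passages, so the cells sampled are those that grew in culture. Mice with in vivo treatment got I-BET151, an inhibitor of BET bromodomain proteins, at 20 mg/kg per day by intraperitoneal injection starting 1 day before the first crystal injection, and their libraries come from primed paws. In vitro treatment was 1 µM I-BET151 for 24 hours on cells of primed paws. Vehicle mice gave the primed libraries (left paw, monosodium urate crystals on day 0 and on day 9) and the non-primed libraries (right paw, crystals on day 9 only), and RNA was taken on day 18. Each of the 4 groups has 3 libraries, and nothing in the labels ties a library to separate animals. The sides crossed these groups unevenly. All 3 non-primed libraries were pigment-cell-rich and all 3 primed vehicle and all 3 in vitro treated libraries were fibroblast-rich, so among vehicle libraries cell identity and priming cannot be told apart. Only the in vivo treated group had libraries on both sides, 2 pigment-cell-rich and 1 fibroblast-rich.

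Melanocytes arise from the neural crest and make melanin inside melanosomes, organelles related to lysosomes, with the enzymes tyrosinase (Tyr), Tyrp1 and dopachrome tautomerase (Dct) on fibrils of the protein Pmel. The transcription factor Mitf, acting with Sox10 and Pax3, switches on many of these genes by binding E-box elements with the core CATGTG. Synovial and dermal fibroblasts are mesenchymal cells known for making fibrillar collagen and for surface proteins such as Thy1 and the PDGF receptors. BALB/c is an albino strain that carries a mutated tyrosinase gene, so its melanocytes make no melanin.

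The E-box that Mitf recognises can be read in the promoters of some genes high on the pigment-cell-rich side. The examples were picked because they hold it. The 250 bases before the annotated start are shown for the 3 enzymes of melanin synthesis and for Mc1r, the receptor for melanocyte-stimulating hormone, with each CATGTG or its reverse complement CACATG in capitals. They are RefSeq sequences of build GRCm38.p6, each 5′ to 3′ on the gene's own strand. The Tyrp1 window is chr4:80833963-80834212 on the plus strand and the Tyr window is chr7:87493513-87493762 on the minus strand. The Dct window is chr14:118052247-118052496 on the minus strand and the Mc1r window is chr8:123406832-123407081 on the plus strand.
Tyrp1: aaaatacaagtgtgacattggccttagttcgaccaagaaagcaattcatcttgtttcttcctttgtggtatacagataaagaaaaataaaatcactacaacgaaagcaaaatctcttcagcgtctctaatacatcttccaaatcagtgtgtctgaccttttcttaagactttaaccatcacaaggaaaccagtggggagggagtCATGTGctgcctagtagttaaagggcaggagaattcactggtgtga
Tyr: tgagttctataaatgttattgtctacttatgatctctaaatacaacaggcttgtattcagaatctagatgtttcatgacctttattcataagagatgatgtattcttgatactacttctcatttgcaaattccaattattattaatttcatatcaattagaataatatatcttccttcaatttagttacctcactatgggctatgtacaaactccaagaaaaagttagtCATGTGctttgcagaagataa
Dct: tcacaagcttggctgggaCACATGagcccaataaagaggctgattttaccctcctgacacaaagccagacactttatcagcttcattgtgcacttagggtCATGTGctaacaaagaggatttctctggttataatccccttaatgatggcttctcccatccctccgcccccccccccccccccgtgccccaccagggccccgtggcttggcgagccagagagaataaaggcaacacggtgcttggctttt
Mc1r: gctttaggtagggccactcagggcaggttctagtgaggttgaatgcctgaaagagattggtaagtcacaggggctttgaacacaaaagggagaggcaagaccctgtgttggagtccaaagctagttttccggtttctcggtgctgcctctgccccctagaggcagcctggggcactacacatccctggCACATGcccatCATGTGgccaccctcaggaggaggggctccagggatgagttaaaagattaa
Counted from the start, the E-box began at -46 in Tyrp1 and at -21 in Tyr. Dct had one at -232 and one at -150, and Mc1r had a pair at -62 and -51. Searched on both strands over 250 bases before to 50 after the start, CATGTG stood in 4293 of 27025 genes with a window, or 15.9%. Among melanin and melanosome genes it stood in 7 of the 20 that matched by symbol (35.0%), namely Tyrp1, Tyr, Dct, Oca2, Trpm1, Slc24a5 and Hps1. Among melanocyte lineage regulators it stood in 1 of 14 (7.14%), which was Mc1r, and Ptgds and Kit had none in their windows. Among fibroblast surface genes it stood in 1 of 14 (7.14%), among genes of fibrillar collagen in 1 of 13 (7.69%) and among matrix proteoglycans and glycoproteins in 2 of 18 (11.1%). The core preceded by AGT and followed by CT, the longer form known as the M-box, overlaps the core and occurred in 7 of all 27025 genes, or 0.0259%, and Tyr and Tyrp1 were among those 7. These matches describe letters in a window, not binding.

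All 12 libraries carry the same fibroblast label, while the 5 pigment-cell-rich ones had many melanocyte genes high and most fibroblast genes low, as given below. In addition, 3 libraries stood apart from their groups. The non-primed library 3 lay beside the in vivo treated libraries 2 and 3 and away from the non-primed libraries 1 and 2. Over 16459 genes kept (mean rlog of at least 3), its Pearson correlation was 0.983 with the in vivo treated library 2 and 0.980 with library 3, against 0.956 and 0.948 with the non-primed libraries 1 and 2. For 13650 of these genes, 82.9%, its value was nearer to the mean of the in vivo treated libraries 2 and 3. The in vivo treated library 1 lay among the fibroblast-rich libraries, apart from the other 2 of its group, and the in vivo treated library 2 held Y-linked transcripts, described below. Correlations across genes ran between 0.948 and 0.996 within the pigment-cell-rich side, between 0.941 and 0.992 within the fibroblast-rich side, and between 0.762 and 0.897 across sides. Values are the authors' rlog values, on which 1 unit is a doubling shrunken for low genes, so differences understate changes of low genes. The table carries no read counts, so depth is unknown, and levels are not compared between genes because the values are not per length.

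The sides differed at a large share of genes. A gene is called higher or lower here when the lowest library of one side lay above the highest of the other and the mean difference was at least 2 log2 units. By that rule 681 of 16459 genes were higher in pigment-cell-rich libraries (4.14%) and 2136 were lower (13.0%). Without the size limit, 3224 genes (19.6%) were higher with no overlap and 3999 (24.3%) were lower. The median difference over all genes was -0.05. Quantile normalization across libraries moved this median to 0.21 and the counts to 1089 higher and 1705 lower. Among the 3 in vivo treated libraries alone, libraries 2 and 3 against library 1 alone on its side, 686 genes were higher and 2096 lower by the same rule, and among vehicle libraries 812 were higher and 2659 lower. Rankings over all genes by difference or likeness, here and below, leave out predicted genes, such as those with Gm or Rik symbols. The 12 named genes with the largest higher differences were Tyrp1, whose place the rule fixed, 7 genes known from pigment cells (Dct, Tyr, Slc45a2, Ptgds, Pmel, Mc1r and Mlana), and Foxr2, Fkbp6, Btn2a2 and Pianp. Foxr2, a forkhead gene, was 12.39 to 12.71 in the pigment-cell-rich libraries against 2.58 to 3.06 in the fibroblast-rich ones. Fkbp6, an immunophilin-family gene known from male meiosis, was 11.72 to 12.54 against 2.12 to 3.40 in the fibroblast-rich libraries. Btn2a2, a butyrophilin, differed by 9.12 log2 units and Pianp, a neural membrane protein, by 8.87. The 12 largest lower differences belonged to Thbs4, Gzme, Ptx3, Mcpt8, Cxcl5, Col1a2, Cxcl3, Col3a1, Loxl1, Csgalnact1, Il1rl1 and U90926. They ran between -8.44 for Thbs4, a thrombospondin of tendon and matrix, and -6.79 for U90926. Some of these varied widely inside the fibroblast-rich side: the chemokine Cxcl5 spanned 13.21 to 18.29 and Cxcl3 spanned 7.21 to 13.71 there.

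**Figure D1:**
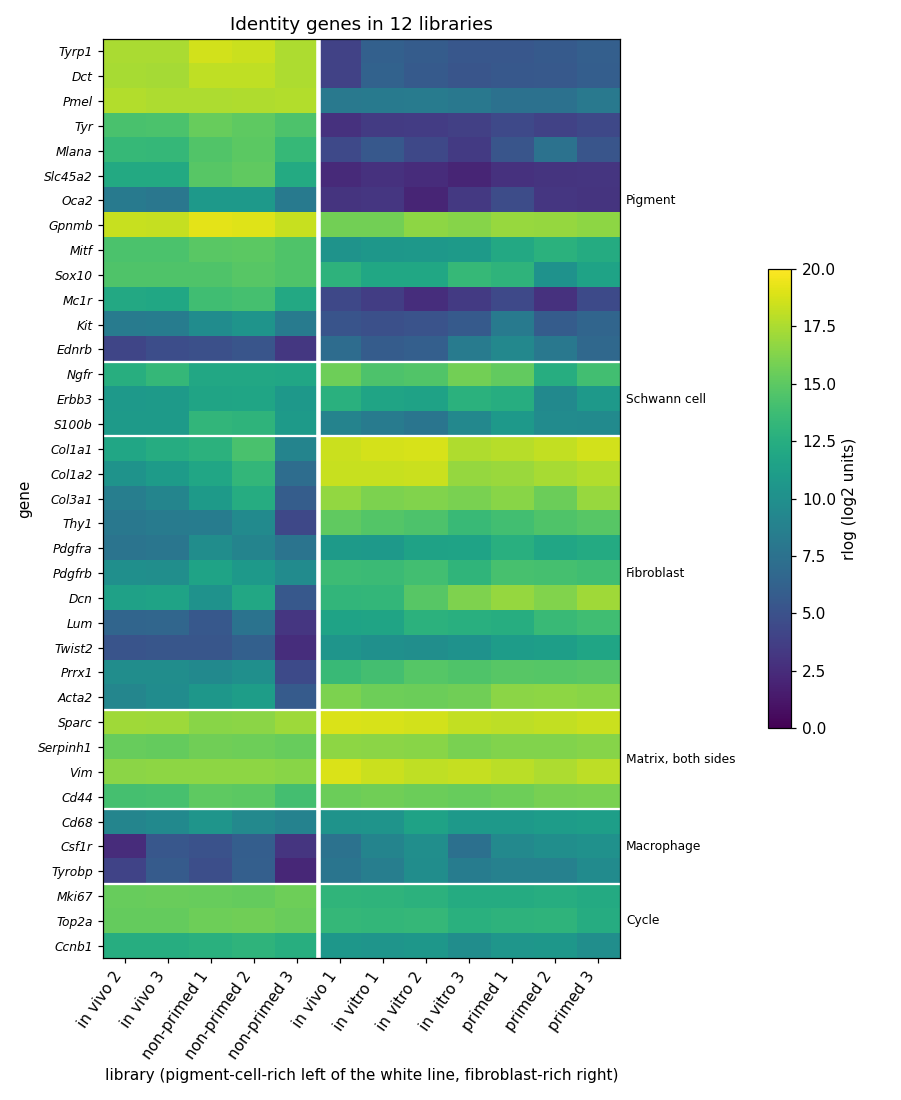
Rlog value of identity genes (rows) in each of the 12 libraries (columns), pigment-cell-rich libraries on the left and fibroblast-rich libraries on the right, with colour giving the rlog value (log2 units). The genes were picked from the lists. The 5 pigment-cell-rich columns are high for the melanocyte genes shown except Ednrb, which is lower there, and for cell cycle genes. They are low for fibroblast and macrophage genes, and Col1a1 and Thy1 are lowest in the non-primed library 3, at 9.00 and 4.33.

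Genes of melanin synthesis were high in all 5 pigment-cell-rich libraries. Leaving out Tyrp1, which chose the sides, 15 of 24 genes of melanin synthesis and the melanosome were higher, 1 was lower and 8 met neither call, with a median difference of 4.25 against -0.05 over all genes. Of all genes, 4.14% were higher and 13.0% lower. Dct, which turns dopachrome into its carboxylated product, was 17.40 and 17.34 (in vivo treated 2 and 3) and 18.07, 18.06 and 17.51 (non-primed 1 to 3), against 3.94 to 6.29 (median 5.58) in the fibroblast-rich libraries. Its 5 values lay within 1 unit of each other and more than 10 units above every fibroblast-rich library. Tyrosinase (Tyr), the rate-limiting enzyme, was 14.24 and 14.30 (in vivo treated 2 and 3) and 15.36, 15.03 and 14.39 (non-primed 1 to 3), against 2.84 to 4.40 (median 3.75) in the fibroblast-rich libraries. Pmel, the fibril protein, was 17.66 and 17.56 (in vivo treated 2 and 3) and 17.57, 17.65 and 17.71 (non-primed 1 to 3), against 7.47 to 8.35 (median 8.10) in the fibroblast-rich libraries. Pmel was the most even of these genes among the pigment-cell-rich libraries, while Tyr was highest in the non-primed libraries 1 and 2. The difference of Dct was 12.21, that of Tyr 10.91 and that of Pmel 9.66.

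Several melanosomal transporters were higher too, while many sorting and trafficking genes met no call. Slc45a2, a melanosomal membrane transporter, was 12.15 and 12.11 (in vivo treated 2 and 3) and 14.78, 15.10 and 12.22 (non-primed 1 to 3), against 2.05 to 3.09 (median 2.88) in the fibroblast-rich libraries. It did not overlap between sides, and the non-primed libraries 1 and 2 stood more than 2 units above the other 3. Mlana differed by 8.86, the channel Trpm1 by 8.44, the exchanger Slc24a5 by 7.77, the melanosomal receptor Gpr143 by 6.67 and the pH regulator Oca2 by 5.98. The Rab GTPases split: Rab38, which sorts cargo to melanosomes, differed by 6.49, while Rab32, its close relative, was lower by rule at -2.11. Rab27a, Mlph and Myo5a form the complex that ties melanosomes to actin. Rab27a differed by 4.98 and Mlph by 3.70, while the motor Myo5a differed by 0.78 and met no call. The BLOC, HPS and AP-3 genes, which act in lysosome-related organelles of many cell types, met no call: Hps1 differed by -0.04, Ap3d1 by 0.05, Dtnbp1 by 0.30 and Hps4 by 0.47.

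The regulators of the lineage were less uniform. Of 20 melanocyte lineage regulators 9 were higher (45.0%, against 4.14% of all genes) and 3 lower, near the 13.0% share of all genes, with a median of 1.82. Mitf itself was 14.32 and 14.32 (in vivo treated 2 and 3) and 14.88, 14.97 and 14.46 (non-primed 1 to 3), against 10.31 to 12.74 (median 10.89) in the fibroblast-rich libraries. Sox10 was 14.50 and 14.49 (in vivo treated 2 and 3) and 14.52, 14.84 and 14.49 (non-primed 1 to 3), against 10.17 to 13.36 (median 11.94) in the fibroblast-rich libraries. Neither gene overlapped between sides, and both had rlog values above 10 in every fibroblast-rich library. Pax3 was 13.19 to 13.51 in the pigment-cell-rich libraries against 5.29 to 7.66 in the fibroblast-rich ones, a difference of 6.88. Mc1r was 12.09 and 11.92 (in vivo treated 2 and 3) and 13.88, 14.11 and 12.08 (non-primed 1 to 3), against 2.64 to 4.46 (median 3.60) in the fibroblast-rich libraries. Its difference was 9.15, and the non-primed libraries 1 and 2 were again above the other 3. Ptgds, the lipocalin-type prostaglandin D synthase made by melanocytes, differed by 10.57, the T-box gene Tbx2 by 5.20, the receptor Met by 4.41 and the stem cell factor receptor Kit by 3.12. Tfap2a, a neural crest factor, differed by 2.97. The 3 lower genes were Tbx3 at -4.62, Foxd3 at -3.84 and the endothelin receptor Ednrb at -2.86, of which Foxd3 is known as a factor of early neural crest. In a bulk library, fewer cells of a type and less RNA per cell cannot be told apart.

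Among 17 melanocyte survival and signalling genes 6 were higher (35.3%, against 4.14% of all genes) and 4 lower (23.5%, against 13.0%), with a median of 1.04. St3gal6, a sialyltransferase, differed by 7.59, the lysosomal channel Mcoln3 by 6.56, the coactivator Ppargc1a by 5.45 and Cdk2, a kinase gene and known Mitf target, by 3.56. Cdk2 overlaps Pmel on the opposite strand. Strand use in counting is not given, so reads of Pmel may have entered the Cdk2 value. The lower genes St6galnac2 (-4.26), Etv4 (-3.92), Spry4 (-2.82) and Etv5 (-2.21) include 3 targets of the growth factor and ERK pathway. Schwann cells share the neural crest origin and Sox10. Of 19 Schwann cell and glial genes, 1 was higher (5.26%) and 3 were lower (15.8%), both near the shares of all genes (4.14% and 13.0%), and the median was -0.39. S100b differed by 2.56, and Sox2 (-3.84), Gap43 (-3.28) and Pmp22 (-2.66) were lower.

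Most fibroblast genes were lower in the pigment-cell-rich libraries. Of 22 fibrillar collagen and collagen assembly genes 19 were lower (86.4%, against 13.0% of all genes) and 0 higher, with a median of -5.33. Col1a1, the main fibrillar collagen chain, was 11.80 and 12.36 (in vivo treated 2 and 3) and 12.87, 14.26 and 9.00 (non-primed 1 to 3), against 17.59 to 18.79 (median 18.39) in the fibroblast-rich libraries. Its sides did not overlap, and the SD was 1.94 over the 5 pigment-cell-rich libraries against 0.44 over the 7 fibroblast-rich ones. The non-primed library 3 was lowest and the non-primed library 2 highest of the 5. Col1a2 differed by -6.99, Col3a1 by -6.90 and the crosslinking enzyme Loxl1 by -6.85. The 3 genes with no call were Plod2 (-1.14), Col15a1 (-1.07) and the collagen chaperone Serpinh1 (-0.89). Of 27 matrix proteoglycans and glycoproteins 21 were lower (77.8%) and 0 higher, with a median of -5.02. Lumican (Lum) differed by -6.76, Fbn1 by -6.69, Fbln2 by -6.53 and biglycan (Bgn) by -6.29, while Sparc (-1.56), Fbln1 (0.51) and elastin (0.75) met no call. Prg4, the lubricin of synovial lining cells, differed by -5.85.

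Surface proteins and transcription factors of fibroblasts followed. Thy1, the surface glycoprotein used to sort fibroblasts, was 8.01 and 8.30 (in vivo treated 2 and 3) and 8.42, 9.58 and 4.33 (non-primed 1 to 3), against 13.58 to 15.08 (median 14.47) in the fibroblast-rich libraries. Every pigment-cell-rich library lay below every fibroblast-rich one, the non-primed library 3 farthest, with a difference of -6.69. Of 20 surface and signalling genes 17 were lower (85.0%, against 13.0% of all genes) and 0 higher, with a median of -4.52. Among the lower ones were Egfr (-6.11), Il1r1 (-5.94), Fap (-5.06), Pdgfrb (-3.41) and Pdgfra (-3.24). The exceptions were Tgfbr2 (-1.77), Ddr2 (-1.49) and endoglin (Eng, 0.47). Of 36 fibroblast and limb mesenchyme transcription factors 28 were lower (77.8%) and 0 higher, with a median of -4.24. Osr1 differed by -6.53, Twist1 by -6.06, Ebf1 by -6.00, Meox2 by -5.97 and Prrx1 by -5.75. Osr2 (0.43), Tbx4 (0.55), Gli3 (0.61) and Lmx1b (1.35) did not follow and met no call.

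**Figure D2:**
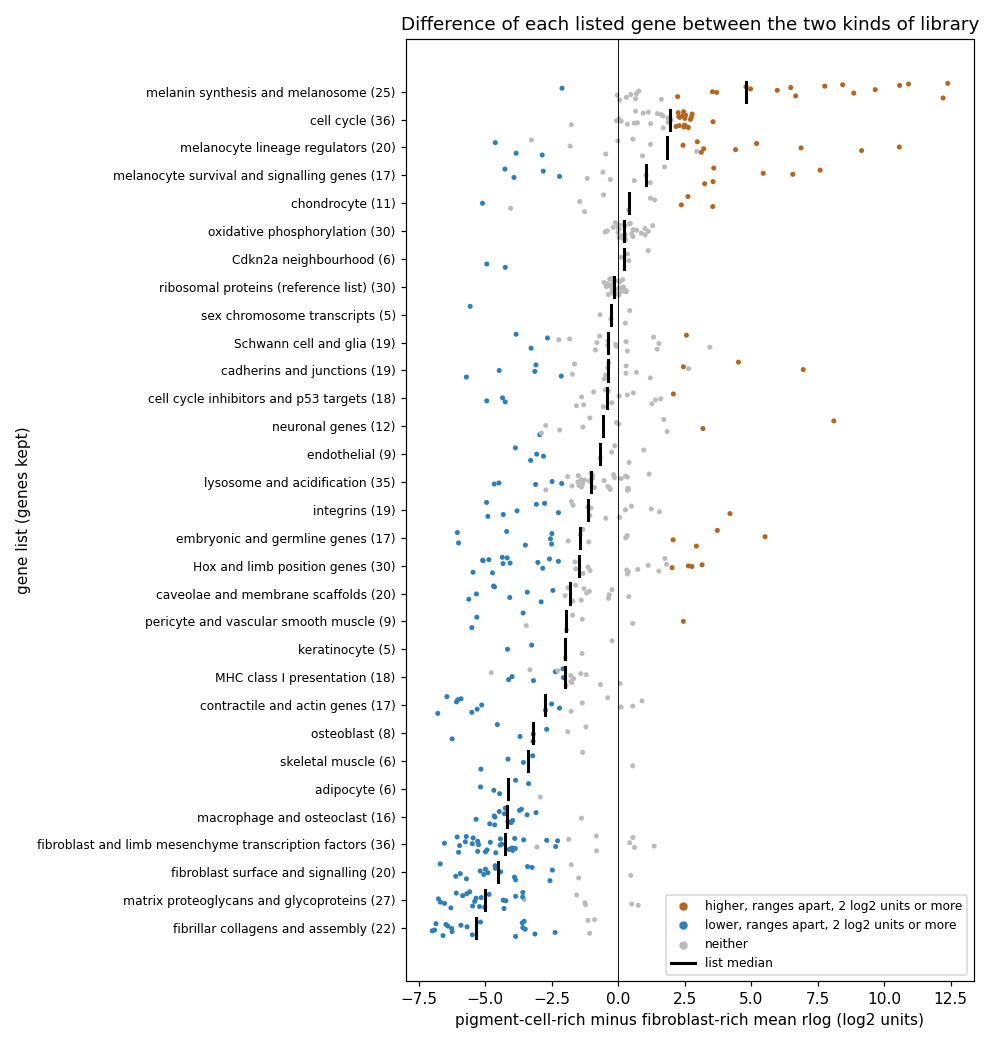
Difference in rlog (pigment-cell-rich mean minus fibroblast-rich mean, log2 units) of each gene kept in the 32 lists but the lymphoid one, 1 row per list, with dots for genes coloured by call and a bar at the list's median. The melanin gene Dct lies at 12.21, while the lists of fibrillar collagens, matrix, fibroblast surface genes and mesenchyme factors have medians between -5.33 and -4.24.

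The level of fibroblast genes left in the pigment-cell-rich libraries differed between libraries. Each gene's rlog was set against its median over the fibroblast-rich libraries and turned into a percentage, and the median over a list was taken. For collagens it was 2.56% and 2.98% in the in vivo treated libraries 2 and 3 and 5.20%, 8.86% and 0.605% in the non-primed libraries 1, 2 and 3. For matrix genes it was 4.90% and 5.63% in the in vivo treated libraries and 3.95%, 6.31% and 1.02% in the non-primed ones. For mesenchyme transcription factors it was 6.90% and 8.60% in the in vivo treated libraries and 6.40%, 7.28% and 1.97% in the non-primed ones. The non-primed library 3 had the lowest median in each of these lists, with the other 4 libraries more than 3 times higher. Fibroblast surface genes were at 5.64% and 5.46% in the in vivo treated libraries and 8.02%, 8.26% and 1.71% in the non-primed ones. Contractile genes were at 10.5% and 11.2% in the in vivo treated libraries and 17.0%, 14.7% and 10.1% in the non-primed ones. Caveolae and membrane scaffold genes were at 31.8% and 32.3% in the in vivo treated libraries and 31.4%, 28.0% and 31.2% in the non-primed ones.

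**Figure D3:**
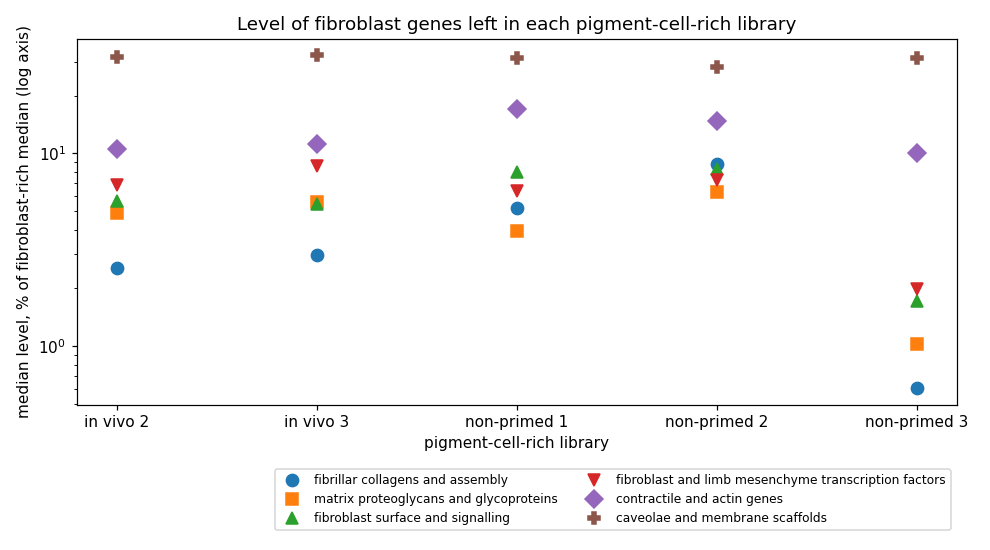
Median level of the genes of 6 lists in each of the 5 pigment-cell-rich libraries, as a percentage of each gene's fibroblast-rich median (log axis), with 1 marker per list. The non-primed library 3 has the lowest collagen median, 0.605%, and the non-primed library 2 the highest, 8.86%.

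Cytoskeleton genes were mostly lower, while adhesion genes held both higher and lower members. Over all genes, 4.14% were higher and 13.0% lower. Of 17 contractile and actin genes 11 were lower (64.7%) and 0 higher (median -2.74). They were led by smooth muscle actin Acta2 (-6.78), Tpm2 (-6.44), Myl9 (-6.08) and Tagln (-6.03), while Tpm1 (-0.40) and Mylk (0.89) met no call. Of 20 caveolae and membrane scaffold genes 8 were lower and 0 higher (median -1.80), with Anxa3 at -5.62, Cavin3 at -5.33, S100a6 at -4.69 and Cav1 at -4.08. Vimentin (Vim), shared by both cell types, differed by -1.60 and met no call. Of 19 cadherins and junction genes 3 were higher (15.8%) and 5 lower (26.3%), with a median of -0.39. The connexin Gjb2 was 8.52 and 8.60 (in vivo treated 2 and 3) and 12.97, 13.01 and 8.57 (non-primed 1 to 3), against 2.33 to 5.00 (median 3.12) in the fibroblast-rich libraries. The sides did not overlap, and the non-primed libraries 1 and 2 lay more than 4 units above the other 3. Tjp3 (4.52) and the melanoma cell adhesion molecule Mcam (2.45) were also higher, and Cdh11 (-5.71), the cadherin of synovial fibroblasts, and the connexin Gja1 (-4.48) were lower. Of 19 integrins 7 were lower (36.8%) and 1 higher (5.26%, near the share of all genes), with a median of -1.15. The higher one was Itga4 (4.20), and Itgb7 (-4.95), the collagen receptor chain Itga11 (-4.90) and the laminin receptor chain Itga3 (-4.32) were the lowest.

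Hox genes record the position of a cell along the body and the limb. Of 30 Hox and limb position genes 13 were lower (43.3%, against 13.0% of all genes) and 4 higher (13.3%, against 4.14%), with a median of -1.46. The lower ones were led by genes of the distal limb, Hoxa13 (-5.46), Hoxd11 (-5.10), Hoxd10 (-5.08) and Hoxd12 (-4.86), and the higher 4 all belonged to the HoxB cluster, Hoxb8 (3.15), Hoxb5 (2.77), Hoxb6 (2.64) and Hoxb3 (2.02). Hoxb8 was 6.93 and 7.18 (in vivo treated 2 and 3) and 8.52, 7.88 and 7.11 (non-primed 1 to 3), against 3.18 to 5.48 (median 4.62) in the fibroblast-rich libraries. Hoxa13 was 6.34 and 6.51 (in vivo treated 2 and 3) and 5.39, 5.61 and 2.71 (non-primed 1 to 3), against 10.25 to 11.30 (median 10.80) in the fibroblast-rich libraries. Neither gene overlapped between sides.

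Markers of other cell types were checked on both sides. Of 16 macrophage and osteoclast genes 15 were lower and 0 higher in the pigment-cell-rich libraries (median -4.20), led by Cd14 (-5.34), Adgre1 (-4.83), Ctsk (-4.66) and Acp5 (-4.65). The mean rlog of the 16 lay between 3.42 and 6.68 over the pigment-cell-rich libraries and between 8.34 and 10.19 over the fibroblast-rich ones. Osteoblast genes had 6 of 8 lower (median -3.20), adipocyte genes 5 of 6 (-4.16) and skeletal muscle genes 4 of 6 (-3.39), with 0 higher in each list. Spp1 differed by -4.55, Lpl by -5.18 and Acta1 by -5.16. The largest difference of the osteoblast list was that of Col1a1 (-6.25), which is also counted among the collagens. Runx2 is also counted among the mesenchyme factors, and Ctsk among the lysosome genes. Lists that share members are not separate evidence. Of 9 endothelial genes 4 were lower (median -0.68; Tek -3.87, Kdr -3.07) and Pecam1 differed by -0.25. Of 5 keratinocyte genes 2 were lower (median -2.0; Krt10 -4.16). Of 9 pericyte genes 3 were lower and 1 higher (median -1.95; Rgs5 -3.58). The single lymphoid or granulocyte gene kept, S100a8, differed by -3.35 with no call. Cartilage genes were mixed, with 3 of 11 higher and 1 lower (median 0.39): Col9a1 (3.56), Sox6 (2.62) and Col9a2 (2.37) against Comp (-5.10). Of 12 neuronal genes 2 were higher and 1 lower (median -0.57), with the synaptotagmin Syt4 at 8.11. Over all genes, 4.14% were higher and 13.0% lower, and the 1 lower call in the cartilage (9.09%) and neuronal (8.33%) lists was near that share. Counts are of the genes kept: 8 of 15 osteoblast, 6 of 10 adipocyte and 6 of 10 skeletal muscle genes listed. For endothelial genes it was 9 of 15 and for keratinocyte genes 5 of 15. The filter used the mean over all 12 libraries, so a low gene could pass through the side where it was high. The fibroblast-rich side holds 7 of the 12, which can tilt genes kept toward lower calls, also in the shares of all genes. With so few genes in most of these lists, 1 call moves a share widely. The part that the other cell types had in the difference between the sides was not tested.

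Many cell cycle genes were higher. Of 36 cell cycle genes 17 were higher (47.2%, against 4.14% of all genes) and 0 lower, with a median of 1.95. The higher ones included Mki67 (2.78), Mcm2 (2.75), Cenpf (2.72) and Aurkb (2.64). The largest difference of the list was that of Cdk2 (3.56), also counted among the survival genes, whose value may hold reads of Pmel. Cyclin D1 (Ccnd1) went the other way at -1.76 without a call. Mki67 was 15.36 and 15.43 (in vivo treated 2 and 3) and 15.33, 15.26 and 15.60 (non-primed 1 to 3), against 12.20 to 13.10 (median 12.48) in the fibroblast-rich libraries, and the sides did not overlap. Of 18 cell cycle inhibitors and p53 targets 3 were lower (16.7%) and 1 higher (5.56%), near the shares of all genes (median -0.43). The tumour suppressor gene Cdkn2a was 8.10 and 8.75 (in vivo treated 2 and 3) and 9.01, 9.05 and 3.60 (non-primed 1 to 3), against 11.24 to 12.47 (median 11.91) in the fibroblast-rich libraries. Its neighbour Cdkn2b was 8.25 and 8.50 (in vivo treated 2 and 3) and 7.88, 8.07 and 3.58 (non-primed 1 to 3), against 11.93 to 12.42 (median 12.29) in the fibroblast-rich libraries. Both were lower in every pigment-cell-rich library and stood more than 4 units lower in the non-primed library 3 than in the other 4. Of the 6 genes kept in the neighbourhood, the 4 others met no call, with Mtap, the nearest gene next to the pair, at 1.13 (median of the 6, 0.23). Of 17 embryonic and germline genes kept, out of 40 listed, 4 were higher (23.5%) and 7 lower (41.2%, against 13.0% of all genes), with a median of -1.43. Lin28b, a repressor of let-7 processing, differed by 5.52, while the imprinted Meg3 (-6.05) and H19 (-6.00) were lower.

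Oxidative phosphorylation and ribosomal protein genes moved little, while lysosome and MHC class I genes had lower medians. Of 30 oxidative phosphorylation genes 0 were higher and 0 lower (median 0.23), and of 30 ribosomal protein genes 0 were higher and 0 lower (median -0.17). Of 35 lysosome and acidification genes 5 were lower (14.3%, near the 13.0% of all genes) and 0 higher (median -1.02), with cathepsins K and S at -4.66 and -4.49 and Tfeb at 1.16 with no call. Of 18 genes of MHC class I presentation 6 were lower (33.3%) and 0 higher (median -2.01), and 8 had overlapping sides. H2-M3 (-4.12), H2-T23 (-3.99) and H2-K1 (-3.19) were among the lower ones, and B2m differed by -1.96. The mean of this list also varied inside the fibroblast-rich side. It was 13.12 to 13.65 in the primed vehicle, 11.72 to 12.62 in the in vitro treated and 11.39 in the in vivo treated library 1. The pigment-cell-rich libraries spanned 9.48 to 11.38.

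Sex chromosome transcripts added a difference between libraries. Xist, the RNA of the inactive X in female cells, was 8.60 and 10.16 (in vivo treated 2 and 3) and 9.40, 9.59 and 5.02 (non-primed 1 to 3), against 13.68 to 14.50 (median 14.18) in the fibroblast-rich libraries. It was lower in every pigment-cell-rich library, lowest in the non-primed library 3, and was the 1 gene called lower of 5 kept (median -0.28). Y-linked Eif2s3y was 6.39, Uty 5.46 and Ddx3y 4.60 in the in vivo treated library 2. Apart from Ddx3y at 1.88 in the non-primed library 2, these 3 genes were at 0.16 or below in the other 11 libraries. The in vivo treated library 2 was the only library with all 3 genes above 4, and Xist in it was 8.60. The labels used here give no sex for these mice.

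Whole chromosomes were compared over 10657 genes with a mean rlog of at least 8, whose median difference was 0.03. Chromosome 6 stood highest, with a median difference of 0.49 over 519 genes, 71.1% of them above 0. Chromosome 14 stood lowest, with -0.32 over 366 genes, 31.7% of them above 0. The other 18 chromosomes had medians between -0.19 and 0.28. In single libraries the chromosome 6 median was 0.46 and 0.45 in the in vivo treated libraries 2 and 3 and 0.50, 0.52 and 0.50 in the non-primed libraries 1, 2 and 3. The chromosome 14 median was between -0.37 and -0.29 in the same 5. In fibroblast-rich libraries every chromosome's median was between -0.11 and 0.04, near 0 by construction, since their own median was subtracted. All 5 pigment-cell-rich libraries shared the 2 shifts, and no DNA measurement was made here.

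**Figure D4:**
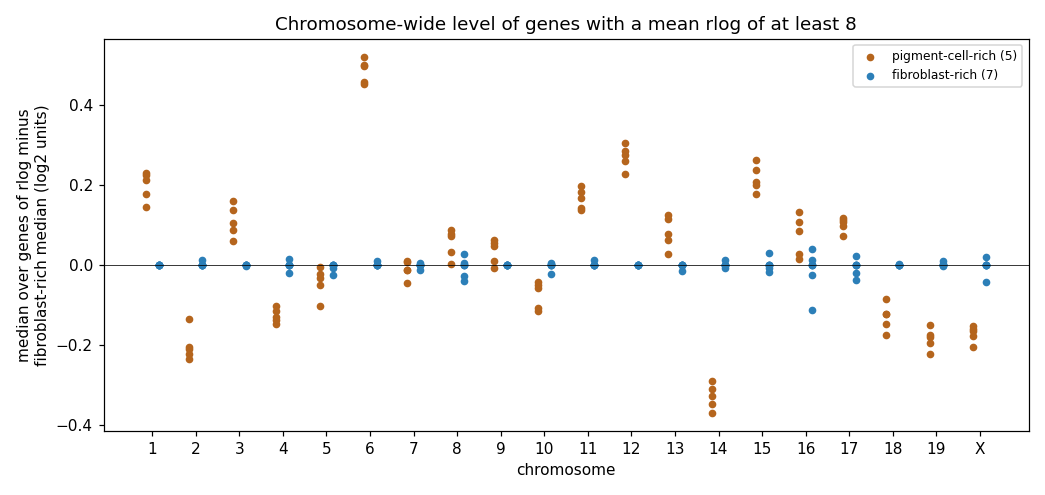
Median rlog difference from the fibroblast-rich median over the genes of each chromosome (y axis, log2 units), with 1 dot per library, pigment-cell-rich and fibroblast-rich in different colours. Chromosome 6 lies between 0.45 and 0.52 and chromosome 14 between -0.37 and -0.29 in all 5 pigment-cell-rich libraries.

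Likeness to a marker was measured over the 12 libraries, as a description, since any gene that separates the sides correlates with the marker that chose them. Predicted genes aside, the 5 genes with the highest Pearson correlation with Tyrp1 were Dct (0.9997), Tyr (0.998), Fkbp6 (0.997), Rapgef2 (0.996) and Luzp4 (0.995). Rapgef2, an exchange factor for Rap GTPases, differed by 2.57 and Luzp4 by 6.69. The 5 most like Col1a1 were Col1a2 (0.998), Loxl1 (0.996), Thy1 (0.996), Angptl4 (0.995) and Ssc5d (0.995). Angptl4, an inhibitor of lipoprotein lipase, differed by -6.75.

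Within the pigment-cell-rich side the labels allow 1 comparison, the in vivo treated libraries 2 and 3 against the non-primed vehicle libraries. These groups differ in both treatment and priming, which cannot be told apart, and the in vivo treated libraries entered by their Tyrp1 value. With limma over all 12 libraries and Benjamini-Hochberg adjustment, 0 of 16459 genes passed an adjusted p of 0.05, with 2147 at an unadjusted p under 0.05. Pmel differed by -0.03 ± 0.18, adjusted p = 0.932, Dct by -0.51 ± 0.29, adjusted p = 0.374, Col1a1 by 0.04 ± 1.19, adjusted p = 0.991 and Thy1 by 0.71 ± 1.20, adjusted p = 0.754 log2 units (difference ± standard error, n = 2 against 3). The list genes with the smallest adjusted p, ties ordered by unadjusted p, were Six2 (2.20 ± 0.31, adjusted p = 0.338), Scx (3.18 ± 0.53, adjusted p = 0.361), Hoxa9 (0.63 ± 0.13, adjusted p = 0.361), S100a6 (0.97 ± 0.21, adjusted p = 0.361) and Ebf3 (2.31 ± 0.50, adjusted p = 0.361), none of which passed. Other list genes shared the adjusted p of 0.361, among them Slc45a2 (-1.90 ± 0.71) and Tyr (-0.66 ± 0.29). The non-primed library 3, which lay apart from its group, enters this comparison. Hexim1, a gene whose level is widely used as a readout of BET inhibition and was added here after its values were seen, was 14.23 and 14.18 (in vivo treated 2 and 3) and 12.19, 12.25 and 14.26 (non-primed 1 to 3). In the fibroblast-rich libraries it was 13.90 in the in vivo treated library 1, 13.92, 14.13 and 13.85 in the in vitro treated libraries and 12.39, 12.19 and 11.98 in the primed vehicle libraries. The 6 I-BET151-treated libraries and the non-primed library 3 thus lay between 13.85 and 14.26, above the other 5 vehicle libraries at 11.98 to 12.39. Its label says vehicle, and the origin of this library was not tested.

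Without the non-primed library 3, 5402 genes passed in the same limma test between the in vivo treated libraries 2 and 3 and the non-primed libraries 1 and 2, of which 2515 were higher (15.3%) and 2887 lower (17.5%). This choice of library was made after its values were seen, although leaving out each library in turn was planned. At 82.9% of genes the library left out lay nearer to the in vivo treated libraries 2 and 3. Leaving it out therefore narrows the spread within its group and favours calls. The p-values below describe the libraries left and are no independent test. Of 24 melanin and melanosome genes other than Tyrp1, 12 fell and 0 rose, of 20 lineage regulators 5 fell (Bcl2, Mc1r, Mitf, Ptgds and Sox5) and 0 rose, and of 22 collagen genes 13 fell and 0 rose. Slc45a2 fell by 2.81 ± 0.29, adjusted p = 0.000224, Rab27a fell by 3.32 ± 0.35, adjusted p = 0.000229 and Mitf fell by 0.60 ± 0.19, adjusted p = 0.036, while Pmel differed by 0.00 ± 0.20, adjusted p = 0.995. Among mesenchyme transcription factors 11 rose, including Scx, the tendon factor, by 2.52 ± 0.22, adjusted p = 0.000105, and 3 fell (Creb3l1, Ebf1 and Tbx4). Hexim1 rose by 1.99 ± 0.14, adjusted p = 4.87e-05 and Brd2, also added after its values were seen, by 1.42 ± 0.14, adjusted p = 0.000192. Beside these counts, 22 of 30 ribosomal protein genes fell and 0 rose, with a median of -0.40 against -0.02 over all genes. The median of the 24 melanin genes was -0.77 and that of the collagen list -1.33. With the library included, none of these genes passed, so these calls rest on the 2 libraries left on each side.

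**Figure D5:**
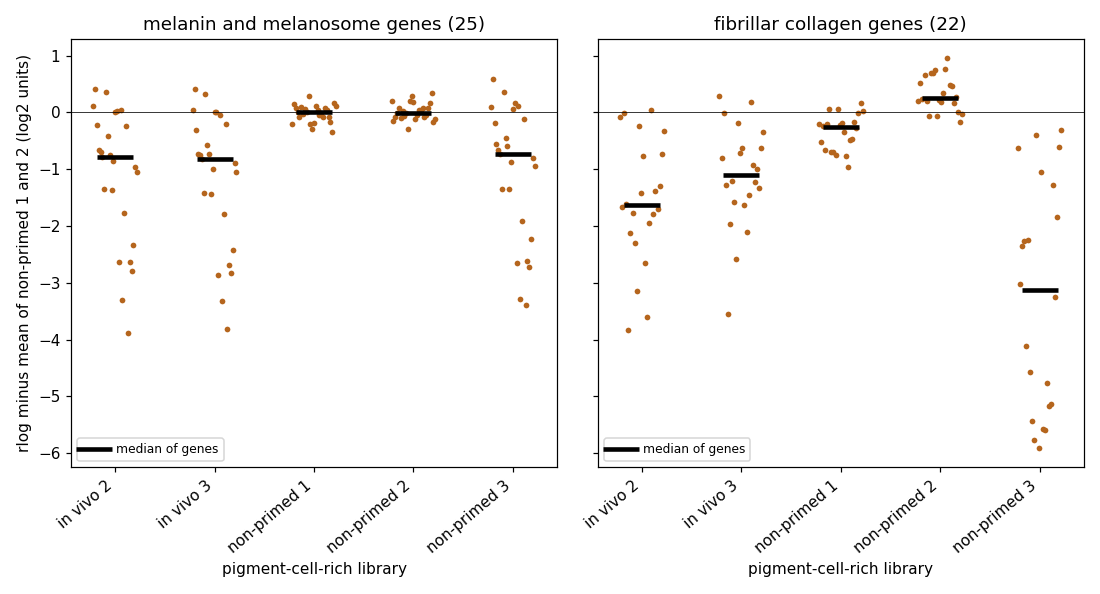
Rlog of each of 25 melanin and melanosome genes, Tyrp1 included (left), and 22 collagen genes (right) minus its mean over the non-primed libraries 1 and 2 (log2 units), in each pigment-cell-rich library, with dots for genes and a bar for their median. The non-primed library 3 lies with the in vivo treated libraries 2 and 3 for melanin genes and has the lowest median of the 5 for collagen genes.

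Within the fibroblast-rich side, the in vitro treated libraries were compared with the primed vehicle libraries, both chosen whole by the rule. Of 16459 genes 1228 rose (7.46%) and 1410 fell (8.57%) by limma with Benjamini-Hochberg adjustment. The split of higher and lower calls was 905 and 1704 with no filter on low values, 1429 and 1205 with median-centred libraries and 1850 and 1465 with quantile normalization. The total of 2638 calls depended on single libraries: it was 528, 471 and 2096 without the in vitro treated libraries 1, 2 and 3, and 1658, 857 and 909 without the primed libraries 1, 2 and 3. The largest called differences were those of inflammatory genes, Il1b (-7.97 ± 0.74, adjusted p = 0.00198), Csf2 (-7.90 ± 0.84, adjusted p = 0.00266), Il1a (-7.39 ± 1.28, adjusted p = 0.00975), Mmp10 (-6.49 ± 1.35, adjusted p = 0.0157), Gpr84 (-5.99 ± 0.62, adjusted p = 0.00245) and Mmp1b (-5.61 ± 0.79, adjusted p = 0.00481). Fibroblast identity genes mostly did not pass: 0 of 27 matrix genes, 1 of 22 collagen genes (Col5a3, lower), 1 of 20 surface genes (Dpp4, lower) and 5 of 36 mesenchyme factors (2 higher, 3 lower). Over all genes 7.46% rose and 8.57% fell, so most genes of any kind did not pass. Col1a1 differed by 0.12 ± 1.06, adjusted p = 0.947 and Dct by 0.08 ± 0.26, adjusted p = 0.844. The fit shares 1 spread per gene over all 12 libraries, and the SD of Col1a1 was 0.44 over the 7 fibroblast-rich libraries alone. Its shared spread includes the non-primed libraries (12.87, 14.26 and 9.00), so not passing does not show that these genes were unchanged. Of 20 melanocyte regulators 0 rose and 3 fell, namely Mitf, Tfec and Sox5. Mitf, also expressed in the macrophage lineage, was 10.61, 10.69 and 10.89 in the in vitro treated libraries against 12.06, 12.74 and 12.34 in the primed ones. The groups did not overlap, and the difference was -1.65 ± 0.18, adjusted p = 0.00297. S100a10 (1.27 ± 0.14, adjusted p = 0.00283), Maged2 (-0.69 ± 0.09, adjusted p = 0.00427), Hmga2 (-2.39 ± 0.32, adjusted p = 0.00427) and H2-T22 (-1.64 ± 0.24, adjusted p = 0.00526) were the other list genes of smallest adjusted p. Of 24 melanin and melanosome genes other than Tyrp1, 4 rose (Atp7a, Myo5a, Bloc1s5 and Hps1) and 1 fell (Slc24a5), and 5 of 19 integrins (Itga2, Itga8, Itgav, Itgb3 and Itgb6) and 4 of 18 MHC class I genes (H2-Q4, H2-T22, Nlrc5 and Psmb10) fell. Among the remaining lists, at most 4 members passed in any direction.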

How the data were processed

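RNA was measured in 12 libraries made with a stranded TruSeq mRNA kit, per the labels' protocols. The authors deposited 1 table of log2-scale rlog values of 55413 genes, per the file headers and the values, which run between -2.24 and 20.55. Build GRCm38 and the tools DESeq2 1.24.0, Subread 1.6.1 with featureCounts, STAR 2.6.1c and cutadapt 1.18 are credited to the submitters' processing notes. Their settings are not given in the sources. Strand use in counting is not given, so overlapping antisense genes cannot be told apart. Rlog values hold no depth and shrink low genes.

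A total of 19136 genes were listed at 0 in every library, and 16459 genes with a mean rlog of at least 3 were kept. Gene positions are from GENCODE release M21, build GRCm38, and promoter windows from RefSeq. The sides were described by means, SDs and ranges. The 2 comparisons inside a side used limma 3.58.1 in R 4.3.3, with 5 cell means (the in vivo treated group split by side) over all 12 libraries, a variance trend and Benjamini-Hochberg adjustment over all genes kept. P-values then measure only the spread between these cultures. The limma step was tested on simulated data with independent genes and the same normal spread in every library of a gene. That test does not cover unequal spread or a library that lies apart from its group, both seen in these data. Deviations of same-numbered in vitro treated and primed libraries from their group means correlated at -0.27, 0.16 and -0.03. Between the in vivo treated and non-primed libraries this check cannot decide on pairing, since the deviations of 2 libraries mirror each other. Pairing between primed and non-primed vehicle libraries was not examined.

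The members and the 32 gene lists were chosen with earlier results of these data known. Named genes were the 5 markers, the 12 largest differences in each direction, for each list up to 4 genes that differed most, the sex chromosome and Cdkn2a genes, the 5 genes most like Tyrp1 and Col1a1, and in each limma comparison the 5 list genes of smallest adjusted p and the 6 largest called differences. Rankings over all genes left out predicted genes (symbols starting with Gm and a digit, ending in Rik, or of the form AC or AL and digits) and genes without a symbol of their own. Ties in adjusted p were ordered by unadjusted p. Other list members are given to show exceptions and were picked after their values were seen. Alternatives were other filters, sizes, Tyrp1 cuts, scalings, subsets and leaving out each library. Values of a few list members are not reported here.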

Additional observations from a re-analysis of the deposited data

Results flagged for a closer look

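Of 88 groups of libraries examined (list means and 12 single genes on each side), 15 held a library whose gap to the next was large for the range of its side. The groups share genes and libraries and include Tyrp1, which chose the sides, so no chance rate can be set against this count. All values are rlog.

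In 7 of the 15 the library was the non-primed library 3, which lay below the other pigment-cell-rich libraries. Its mean over mesenchyme transcription factors was 4.95 (others at least 6.65), over matrix genes 6.95 (others 9.53 to 10.39), over osteoblast genes 5.76 (others 7.28 to 7.62) and over adipocyte genes 2.49 (others 5.00 to 5.89). Its mean over the Cdkn2a neighbourhood was 10.04 (others 11.31 to 11.67), with Cdkn2a at 3.60 (others 8.10 to 9.05) and Cdkn2b at 3.58 (others 7.88 to 8.50).

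The in vivo treated library 2 stood apart for Y-linked transcripts, with Uty at 5.46 (others -1.03 to 0.16) and Eif2s3y at 6.39 (others -1.26 to -0.43). The non-primed library 2 had the highest cell cycle mean, 13.30 (others 12.97 to 13.04).

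On the fibroblast-rich side, the in vivo treated library 1 had the lowest Tyrp1, 3.98 (others 5.46 to 6.10), and the lowest Dct, 3.94 (others 5.29 to 6.29). The in vitro treated library 3 had the lowest mean of fibroblast surface genes, 12.07 (others 12.47 to 12.75), and of matrix genes, 13.10 (others 13.50 to 13.78). The in vitro treated library 1 had the highest mean of sex chromosome transcripts, 13.25 (others 13.06 to 13.14).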

How the results depend on the processing

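Of the counts of 681 genes higher and 2136 lower in pigment-cell-rich libraries, a size limit of 1 log2 unit gave 1690 higher, a limit of 4 units gave 173 higher and 894 lower, and quantile normalization gave 1089 higher. Leaving out single libraries gave 674 to 711 higher and 2072 to 2264 lower, and Tyrp1 cuts of 9 and 15 gave the same counts. Leaving out the non-primed library 3 and the in vivo treated library 2 together, chosen after seeing the data, gave 738 and 2056. Median-centring moved the median over all genes to 0.06. Among named genes whose sides did not overlap, the sign changed in 1 value, that of Rplp0, at 0.27 under quantile normalization. Among those whose sides overlapped it changed in 10 values of 7 genes.

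Between the in vivo treated libraries 2 and 3 and the non-primed libraries, 2 genes were higher with no filter and 3 with quantile normalization. Leaving out single libraries gave 0 to 2515 higher and 0 to 2887 lower genes, above 0 only without the non-primed library 3. Col1a1 then reversed to -1.49 (0.04 with all libraries; -1.49 to 1.14 over single libraries left out).

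Between in vitro treated and primed libraries (1228 higher, 1410 lower), quantile normalization gave 1850 higher and a fit of these 6 libraries alone 2207 higher and 2776 lower. Leaving out single libraries gave 171 to 982 higher and 300 to 1114 lower. The cause of these changes was not tested. Deviations of same-numbered in vitro treated and primed libraries correlated between -0.27 and 0.16, against -0.44 to 0.42 for libraries of different numbers. With the replicate block, 599 genes were higher and 796 lower, and between the in vivo treated and non-primed libraries 0 passed. Not every library correlated best with its own number. The rlog table carries no depth, and low genes are shrunken, so small differences of low genes may be missed.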
